A study of Mus musculus with 36 samples.

Results

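The 10 metabolic nuclear receptor genes described here were Nr0b2, Ppara, Ppard, Esrra, Rxra, Rxrg, Thra, Thrb, Nr3c1 and Nr4a1, measured in the left ventricle of mice. They were chosen by gene symbol, and each probe set annotated to only 1 of these symbols was taken. That gave 14 of the 22690 probe sets on the array, and 10 of the 12393 genes. Nr3c1 had 3 probe sets, Thra and Rxra had 2 each, and the others had 1 each, and probe sets of a gene were averaged. Mice had undergone transverse aortic constriction (TAC), in which a band around the aorta raises the pressure against which the left ventricle pumps, or a SHAM operation. In both groups the hearts were taken 8 weeks after surgery, at ZT03, ZT07, ZT11, ZT15, ZT19 and ZT23, with ZT giving the hour of the daily schedule. Each surgery and time had 3 mice, 1 array per mouse, which makes 18 TAC and 18 SHAM hearts. The labels used here name the mice by surgery and time alone, with no strain, sex, age or light schedule, and tell replicates apart only by a number.

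Nuclear receptors are transcription factors whose activity is set by small fat-soluble ligands such as hormones, fatty acids and retinoids, or, for the orphan members, mainly by how much of the protein is made. Many bind DNA as a pair with a retinoid X receptor and exchange corepressors for coactivators when ligand arrives. In heart muscle, PPARs and ERR alpha direct fatty acid oxidation and mitochondrial energy supply, thyroid hormone receptors set contractile genes and heart rate, and the glucocorticoid receptor carries the daily adrenal hormone signal.

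The deposited values are relative. Within the 18 TAC hearts, and again within the 18 SHAM hearts, the median of each probe set was 0 to a tolerance of 1e-06. Thus no receptor can be called higher or lower in TAC than in SHAM, receptors cannot be ranked by level, and neither the presence of a receptor nor that of cardiomyocyte markers can be read from these values. What can be read is the course of each receptor over the day within a surgery, whether the courses of TAC and SHAM hearts differ in shape, the spread between mice, and the relation to other genes among mice. Values are given as log2 relative to that median, although the log base is not stated in the sources used here. A few hearts stood apart in marker genes of other tissues. The mean of 12 thymocyte markers was 2.04 in SHAM ZT11 replicate 3, and that of 11 airway and alveolar markers was 1.17 in TAC ZT23 replicate 1, 0.90 in TAC ZT03 replicate 3 and 0.72 in SHAM ZT23 replicate 3. Over all hearts the thymocyte mean ran from -0.08 to 0.12 in TAC and from -0.06 to 2.04 in SHAM hearts, and the airway mean from -0.11 to 1.17 in TAC and from -0.11 to 0.72 in SHAM hearts. Results that change when these hearts are left out are given both ways. The mean of 8 white adipocyte markers ran from -0.47 to 1.22 in TAC and from -0.49 to 1.11 in SHAM hearts, and in the TAC ZT15 hearts it was 0.60, 0.57 and 0.97. The mean of 10 atrial markers ran from -0.81 to 0.46 in TAC and from -0.72 to 0.23 in SHAM hearts, with -0.26, -0.76 and -0.81 at TAC ZT23. Hypertrophy and matrix genes also differed between the TAC times. In the TAC ZT23 hearts the mean of 13 hypertrophy genes was 0.41 to 0.52. That of 19 matrix genes was 0.46 to 0.83, and that of 9 activated fibroblast markers 0.66 to 1.06. At TAC ZT15 the matrix means were -0.68 to -0.15. The part of these genes in the TAC courses was not tested. In whole tissue, fewer cells of a type and less RNA per cell cannot be told apart.

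Promoter sequence is shown for 3 receptors that passed a test of change over the day and had an entry in RefSeq (GRCm38.p6), so that the letters upstream of their starts can be read beside their courses. Of the 10 members, 8 had an entry in the promoter table. Windows of 250 bases upstream of each start were searched on both strands. Nr0b2 (chr4:133553126-133553375, plus strand) held an E-box, CACGTG, the motif bound by the clock activators, 195 to 190 bases upstream of the start, and 6.02% of the 32851 promoters in the table held one. Nr4a1 (chr15:101266596-101266845, plus strand) held 4 CRE half-sites, TGACG or its complement CGTCA, the core of the cAMP response element. They began 233, 213, 69 and 40 bases upstream. At least 1 such half-site was present in 17.8% of promoters and 4 or more in 0.137%, or 45 promoters, and the Nr4a1 window was 74.4% G and C. The Rxrg start at chr1:167618015-167618264 (plus strand) had an NBRE, AAAGGTCA, the element that NR4A receptors bind as monomers, 90 to 83 bases upstream, against 1.34% of promoters. That NBRE contains the receptor half-site AGGTCA, which 14% of promoters held. Also searched were the E-prime box CACGTT (in 3.85% of promoters), the RORE (0.493%), the D-box TTATGTAA (0.819%), the full CRE TGACGTCA (1.55%), the ERR element TNAAGGTCA (1.14%), direct repeats of AGGTCA spaced by 1 base (0.0335%) and by 4 bases (0.0152%), and the glucocorticoid half-site AGAACA (16.1%). None of these was found in the 3 windows printed. The same motifs also stood before receptors with no course that passed. Thrb had an E-box 193 to 188 bases upstream of a start at chr14:17981644, Rxra an NBRE 50 to 43 bases upstream of a start at chr2:27709292, and Thrb and Ppara 1 CRE half-site each. The other Rxrg start (chr1:167598112-167598361) held none of the motifs searched. The motif is in capitals in each sequence.
Nr0b2: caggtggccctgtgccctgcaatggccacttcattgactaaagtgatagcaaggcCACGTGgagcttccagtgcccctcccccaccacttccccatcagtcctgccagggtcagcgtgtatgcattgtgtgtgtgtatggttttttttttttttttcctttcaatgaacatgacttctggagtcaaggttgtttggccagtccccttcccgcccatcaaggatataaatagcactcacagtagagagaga
Nr4a1: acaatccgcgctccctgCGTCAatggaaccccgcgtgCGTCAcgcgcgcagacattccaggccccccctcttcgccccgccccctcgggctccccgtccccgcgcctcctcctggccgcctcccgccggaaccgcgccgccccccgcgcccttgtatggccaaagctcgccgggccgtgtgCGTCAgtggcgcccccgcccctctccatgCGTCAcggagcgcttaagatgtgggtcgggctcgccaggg
Rxrg: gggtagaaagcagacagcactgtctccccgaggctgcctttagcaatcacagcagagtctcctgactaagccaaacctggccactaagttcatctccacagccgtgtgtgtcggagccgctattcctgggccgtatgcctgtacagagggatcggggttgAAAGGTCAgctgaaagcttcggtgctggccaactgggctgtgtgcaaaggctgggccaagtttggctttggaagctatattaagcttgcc
These matches describe letters in a window, and binding was not measured.

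Few of the receptors followed a rhythm that passed the test, and those that did were not the PPARs. A cosine curve with a 24 h period was fitted to each gene in each surgery with limma, and its amplitude is the distance from the mean of the curve to its peak. In TAC hearts 1 of the 10 receptors, Nr0b2, passed at an adjusted p under 0.05, beside 4.35% of all genes. In SHAM hearts 3 of 10 passed, Thra, Nr4a1 and Nr0b2, beside 5.58% of all genes. For the difference of rhythm between TAC and SHAM, 0 of 10 passed after adjustment (limma), beside 0.0484% of all genes, and 3 had an unadjusted p under 0.05, beside 6.27% of all genes. A test for any shape over the 6 times passed for 1 of 10 in TAC hearts, Rxrg, beside 5.26%, and for 3 of 10 in SHAM hearts, again Thra, Nr4a1 and Nr0b2, beside 3.37%.

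**Figure D1:**
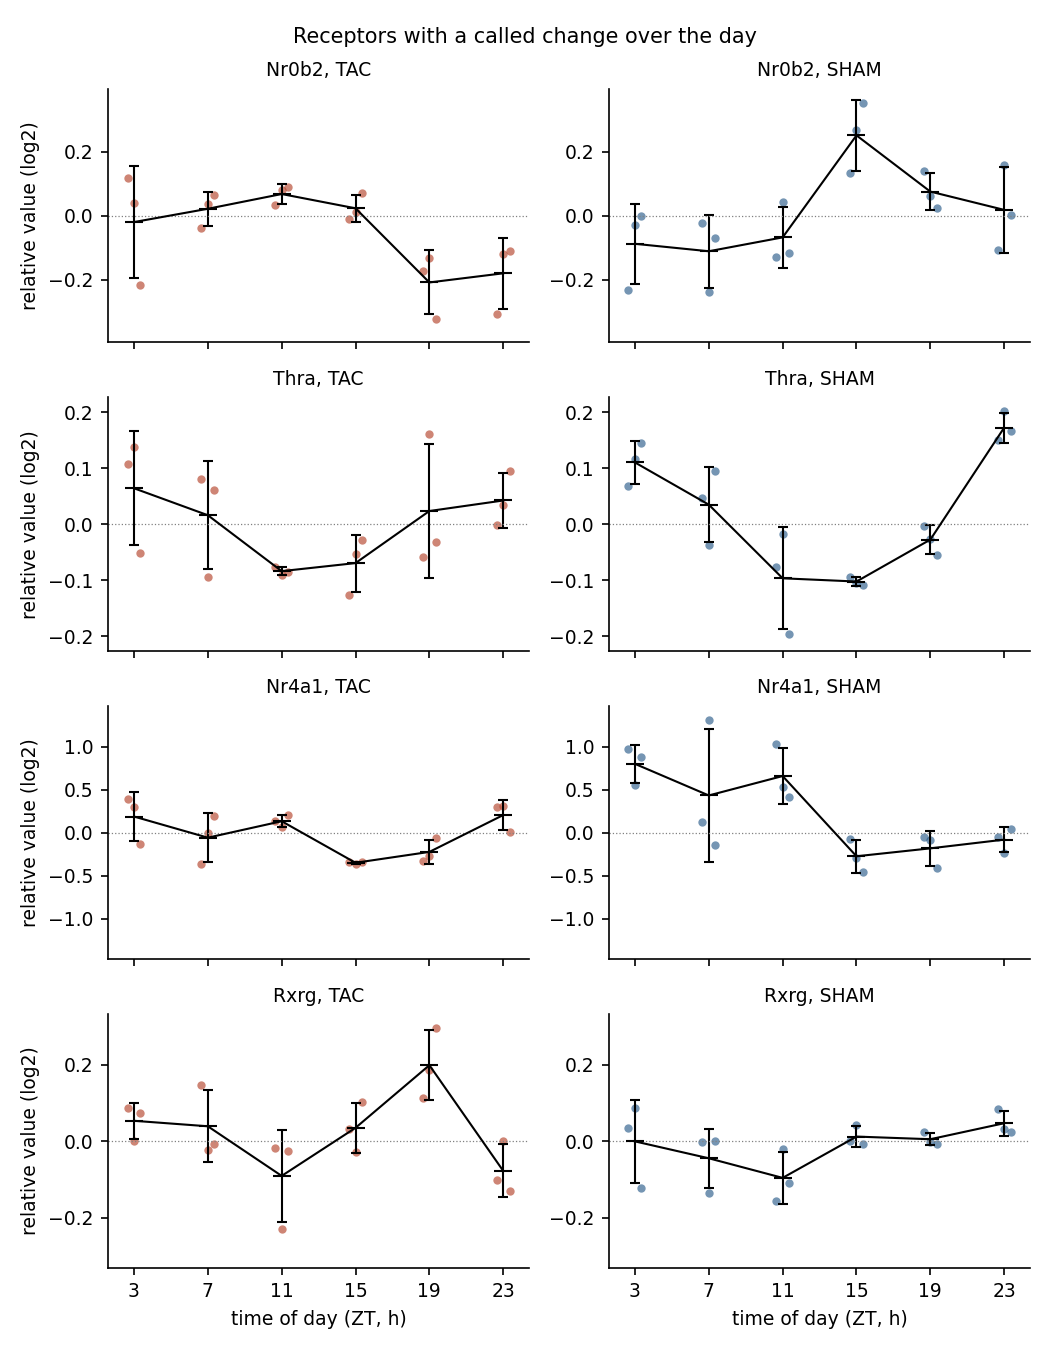
Relative value (log2, vertical axis) against time of day (ZT in h, horizontal axis) for Nr0b2, Thra, Nr4a1 and Rxrg, with TAC hearts in the left panels and SHAM hearts in the right panels. Points are single mice, and black marks are the mean ± SD of 3 mice. Nr0b2 was lowest at ZT19 and ZT23 in TAC hearts and highest at ZT15 in SHAM hearts.

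Nr0b2 encodes SHP (small heterodimer partner), a receptor without a DNA-binding domain that represses other nuclear receptors and is best known as a bile acid-induced repressor in liver. The gene lies at chr4:133553376-133556686. In TAC hearts its values were 0.12, 0.04 and -0.22 at ZT03, -0.04, 0.04 and 0.07 at ZT07, 0.03, 0.08 and 0.09 at ZT11, -0.01, 0.01 and 0.07 at ZT15, -0.17, -0.13 and -0.32 at ZT19, and -0.31, -0.12 and -0.11 at ZT23. Every TAC value at ZT19 and ZT23 was below every TAC value at ZT07, ZT11 and ZT15. In SHAM hearts the values were -0.23, -0.03 and 0.00 at ZT03, -0.02, -0.24 and -0.07 at ZT07, -0.13, 0.04 and -0.12 at ZT11, 0.13, 0.27 and 0.35 at ZT15, 0.14, 0.06 and 0.02 at ZT19, and -0.11, 0.16 and 0.00 at ZT23. The SHAM values at ZT15 were all above those at ZT03, ZT07 and ZT11, and overlapped with those at ZT19 and ZT23.

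The fitted Nr0b2 curves were of similar size in both surgeries and lay hours apart. The amplitude was 0.14 ± 0.04 in TAC hearts (SE, n = 18), with a peak at ZT9.48 and an adjusted p of 0.0432 (limma). In SHAM hearts it was 0.15 ± 0.04 (SE, n = 18), with a peak at ZT17.1 and an adjusted p of 0.0176 (limma). From trough to peak these are 1.21-fold in TAC and 1.23-fold in SHAM hearts. The fitted peak came earlier in TAC than in SHAM hearts, with a TAC minus SHAM difference of -7.61 h (95% interval -10.3 to -4.93). The test of the difference in rhythm gave p = 0.000117 (n = 18 each), which did not pass after adjustment over all genes (adjusted p = 0.145, limma). The any-shape test gave an adjusted p of 0.0872 in TAC and 0.0395 in SHAM hearts (limma). That SHAM call held in 34 of 50 alternative analyses and in 26 of the 36 that left out 1 heart, with an adjusted p up to 0.744 (limma). The difference in the 6-point course gave an adjusted p of 0.245 (limma). Amplitudes differed by -0.01 (95% interval -0.11 to 0.09).

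The rhythm of Nr0b2 in TAC hearts lay close to the threshold. Its adjusted p ranged from 0.0205 to 0.249 over 51 alternative analyses (limma), and it passed in 26 of them, among which were 19 of the 36 that left out 1 heart. Most of those 19 left out a SHAM heart, which kept the TAC amplitude at 0.14 and moved only the shared spread. With a TAC heart left out, the rhythm passed only without a ZT03 heart, ZT07 replicate 1 or ZT15 replicate 1. The adjusted p was 0.0950 without TAC ZT23 replicate 1, one of the hearts with raised airway markers. Without the 2 hearts whose thymocyte or airway mean exceeded 1 it was 0.0838, and without the 4 whose mean exceeded 0.5 it was 0.0825. With the atrial and adipocyte marker means added to the model it was 0.0739 (limma). In SHAM hearts the rhythm passed in 44 of 51 alternatives. The adjusted p was 0.0591 without SHAM ZT15 replicate 3 or without SHAM ZT07 replicate 2, 0.0531 without SHAM ZT15 replicate 2, and 0.0705 with the atrial and adipocyte markers added to the model, and the rhythm was also lost without any of the 3 replicate numbers. The difference between TAC and SHAM passed in 2 of 50 alternatives, quantile normalization (adjusted p = 0.0330) and array weights (adjusted p = 0.0171, limma).

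The genes whose values ran most like those of Nr0b2 over the 36 hearts were Il15ra, an interleukin 15 receptor subunit, with a Pearson r of 0.72 (0.70 without the 2 farthest hearts), Zfp30, a zinc finger protein, with 0.64, and Rab3a, a GTPase of vesicle release, with 0.62. These points share their hearts and arrays. Of 9 measured genes of the FXR and SHP system, such as bile acid transporters and synthesis enzymes, 0 passed the rhythm test in TAC and 0 in SHAM hearts with limma. At an unadjusted p under 0.05 the counts were 3 in TAC and 0 in SHAM hearts, beside 19.8% and 18.8% of all genes.

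Thra encodes thyroid hormone receptor alpha, the main thyroid receptor of heart muscle. It lies at chr11:98740776-98769006, and its end overlaps Nr1d1 (chr11:98767932-98775377), the gene of the clock repressor REV-ERB alpha, which is transcribed from the opposite strand. In TAC hearts Thra was 0.11, 0.14 and -0.05 at ZT03, 0.08, -0.09 and 0.06 at ZT07, -0.08, -0.09 and -0.08 at ZT11, -0.13, -0.05 and -0.03 at ZT15, -0.06, 0.16 and -0.03 at ZT19, and 0.00, 0.03 and 0.09 at ZT23. In SHAM hearts it was 0.07, 0.12 and 0.15 at ZT03, 0.05, -0.04 and 0.10 at ZT07, -0.08, -0.02 and -0.20 at ZT11, -0.09, -0.10 and -0.11 at ZT15, 0.00, -0.03 and -0.05 at ZT19, and 0.15, 0.20 and 0.17 at ZT23. All SHAM values at ZT23 lay above all SHAM values at ZT07, ZT11, ZT15 and ZT19, while in TAC hearts single mice at ZT03, ZT07 and ZT19 overlapped with most other times.

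Thra had an amplitude of 0.08 ± 0.02 in TAC hearts (SE, n = 18), which did not pass (adjusted p = 0.101, limma). In SHAM hearts the amplitude was 0.14 ± 0.02 (SE, n = 18), with a peak at ZT1.31 and an adjusted p of 0.000283 (limma). The amplitude difference was -0.06 (95% interval -0.13 to 0.00), the difference of rhythms did not pass (adjusted p = 0.863, limma), and the fitted peaks lay -0.38 h apart, TAC minus SHAM (95% interval -3.02 to 2.26). The any-shape test gave an adjusted p of 0.303 in TAC and 0.00755 in SHAM hearts (limma). The SHAM rhythm held in 50 of 51 alternatives, the exception being the analysis without replicate number 3 (adjusted p = 0.0540). The TAC rhythm passed in 4 of 51, among them the analysis without TAC ZT03 replicate 3 (adjusted p = 0.0473, limma). Without the 4 hearts of raised thymocyte or airway markers its adjusted p was 0.0236 (limma).

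The call for Thra in TAC hearts depended on the probe set. Tested over all probe sets, 1454675_at had a rhythm in both surgeries, with an amplitude of 0.12, a peak at ZT22.8 and an adjusted p of 0.0163 in TAC, and an amplitude of 0.16, a peak at ZT0.67 and an adjusted p of 0.0004 in SHAM hearts (limma). The other, 1426997_at, had an amplitude of 0.08 and an adjusted p of 0.281 in TAC, and an amplitude of 0.12, a peak at ZT2.15 and an adjusted p of 0.0467 in SHAM hearts (limma). Their Pearson r over the 36 hearts was 0.40. Nr1d1 itself had an amplitude of 0.98 and peaked at ZT5.67 in TAC, and had 0.97 and peaked at ZT6.65 in SHAM hearts. The genes most like Thra were Slc41a3, a magnesium carrier, with a Pearson r of 0.85, Tnfaip2 with 0.83 and Denn2b with 0.77 over the 36 hearts, with fitted SHAM peaks at ZT1.78, ZT1.14 and ZT1.83.

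Thrb, the second thyroid hormone receptor (chr14:17659225-18040097), showed no daily course that passed. Its values ran from -0.23 in TAC ZT03 replicate 3 to 0.29 in TAC ZT11 replicate 2, and from -0.15 to 0.14 over the SHAM hearts. The amplitude was 0.06 ± 0.03 in TAC (adjusted p = 0.490) and 0.01 ± 0.03 in SHAM hearts (SE, n = 18 each, adjusted p = 0.958, limma). Its closest genes over the 36 hearts were Plac1, Ncan and Tshz2, with a Pearson r of 0.74, 0.72 and 0.72.

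Of 17 measured thyroid hormone target genes, 1 passed the rhythm test in TAC hearts, beside 4.35% of all genes, and 3 in SHAM hearts, beside 5.58%. Thrsp, which thyroid hormone induces in fat-forming tissue, passed in TAC hearts with an amplitude of 0.70 and an adjusted p of 0.0376, against 0.40 with an adjusted p of 0.334 in SHAM hearts (limma). Klf9, Ucp3 and Hr passed in SHAM hearts. Klf9 is also counted below among the glucocorticoid targets and Ucp3 among the PPAR targets, so these calls are not separate. The krüppel-like factor Klf9 had an amplitude of 0.13 in TAC and 0.32 in SHAM hearts, the uncoupling protein Ucp3 0.19 in TAC and 0.56 in SHAM hearts, and the corepressor Hr 0.06 in TAC and 0.13 in SHAM hearts. The differences of rhythm did not pass for any of these (adjusted p of 0.753 for Klf9, 0.748 for Ucp3, 0.808 for Hr and 0.931 for Thrsp, limma). The TAC call of Thrsp held in 36 of 51 alternatives, and in 26 of the 36 that left out 1 TAC or SHAM heart. Its adjusted p was 0.116 without TAC ZT15 replicate 3 (limma). The adipocyte marker mean was between 0.57 and 0.97 in the 3 TAC ZT15 hearts, and its part in the Thrsp course was not tested. None of the 5 measured genes of thyroid hormone supply, the deiodinases and transporters, passed in either surgery with limma. At an unadjusted p under 0.05 there was 1 in TAC and 2 in SHAM hearts, beside 19.8% and 18.8% of all genes.

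Nr4a1 encodes NUR77, an orphan receptor that behaves as an immediate early gene and is induced within minutes by adrenergic and other signals. It lies at chr15:101253902-101274795 and had the widest daily swing among the receptors in SHAM hearts. In TAC hearts it was 0.39, 0.30 and -0.14 at ZT03, -0.36, -0.01 and 0.20 at ZT07, 0.14, 0.06 and 0.20 at ZT11, -0.34, -0.36 and -0.34 at ZT15, -0.33, -0.27 and -0.07 at ZT19, and 0.30, 0.31 and 0.01 at ZT23. In SHAM hearts it was 0.97, 0.55 and 0.87 at ZT03, 0.13, 1.31 and -0.14 at ZT07, 1.03, 0.53 and 0.41 at ZT11, -0.07, -0.30 and -0.45 at ZT15, -0.05, -0.09 and -0.42 at ZT19, and -0.06, -0.23 and 0.05 at ZT23. All SHAM values at ZT03 and ZT11 were above all SHAM values at ZT15, ZT19 and ZT23. At ZT07 the 3 SHAM mice covered nearly the whole range.

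The amplitude of Nr4a1 was 0.22 ± 0.10 in TAC hearts (SE, n = 18), which did not pass (adjusted p = 0.383, limma). In SHAM hearts it was 0.52 ± 0.10 (SE, n = 18), a 2.04-fold change from trough to peak, with a peak at ZT6.28 and an adjusted p of 0.00440 (limma). The amplitude difference was -0.30 (95% interval -0.59 to 0.00), and the test of the difference in rhythm gave p = 0.0452 before and 0.789 after adjustment (limma, n = 18 each), so a smaller swing in TAC hearts was not established. The any-shape test gave an adjusted p of 0.329 in TAC and 0.00381 in SHAM hearts (limma). The SHAM rhythm held in 50 of 51 alternatives and had an adjusted p of 0.0267 without SHAM ZT07 replicate 2. It was lost without replicate number 2 (adjusted p = 0.368, limma). The genes most like Nr4a1 over the 36 hearts were Tmem263, Dctn4, a dynactin subunit, and Taf1b, a subunit of the RNA polymerase I factor SL1, with a Pearson r of 0.67, 0.64 and 0.63.

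Among 20 other immediate early genes, 2 passed the rhythm test in TAC hearts, beside 4.35% of all genes, and 2 in SHAM hearts, beside 5.58%. Junb and Atf3, AP-1 and stress-response factors, passed in TAC hearts, with amplitudes of 0.23 for Junb and 0.39 for Atf3 against 0.11 and 0.08 in SHAM hearts. Ier3, an early response gene tied to survival, and Zfp36, which speeds decay of inflammatory mRNAs, passed in SHAM hearts. Ier3 had an amplitude of 0.24 in TAC and 0.56 in SHAM hearts, and Zfp36 0.23 in TAC and 0.27 in SHAM hearts. The differences of rhythm did not pass for any of these (adjusted p of 0.789 for Junb and Atf3, 0.831 for Ier3 and 0.937 for Zfp36, limma). The fitted peaks were spread over the day, at ZT1.24 for Junb and ZT19.6 for Atf3 in TAC hearts, and at ZT10.1 for Zfp36 and ZT15.3 for Ier3 in SHAM hearts, beside ZT6.28 for Nr4a1 in SHAM hearts.

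Nr3c1 encodes the glucocorticoid receptor (chr18:39410545-39519421). Its own course was small. In TAC hearts the group means were -0.02 at ZT03, 0.00 at ZT07, -0.10 at ZT11, 0.00 at ZT15, 0.14 at ZT19 and -0.02 at ZT23, with SDs between 0.05 and 0.18 (n = 3 each). In SHAM hearts they were 0.00, -0.16, -0.02, -0.03, 0.13 and 0.08 at the same times, with SDs between 0.04 and 0.14 (n = 3 each). ZT19 was the highest mean in both surgeries. The amplitude was 0.07 ± 0.04 in TAC (adjusted p = 0.538) and 0.12 ± 0.04 in SHAM hearts (SE, n = 18 each, adjusted p = 0.169, limma), with fitted peaks at ZT19.9 and ZT20.2. The 3 probe sets had SHAM peaks between ZT20.1 and ZT20.3 and TAC peaks between ZT18.8 and ZT21.7, and none passed on its own. Over the 36 hearts 1421867_at had a Pearson r of 0.53 with 1421866_at and 0.59 with 1460303_at. Between 1421866_at and 1460303_at it was 0.19. In SHAM hearts Nr3c1 passed in 2 of its alternatives, quantile normalization (adjusted p = 0.0434) and array weights (adjusted p = 0.00449, limma). Its closest genes were Mrfap1, Fundc1, a mitophagy receptor, and Lamb1, a laminin chain, with a Pearson r of 0.84, 0.82 and 0.77.

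The 18 glucocorticoid target genes listed here had a median amplitude above the amplitude of the receptor itself. Of these, 4 passed in TAC hearts, beside 4.35% of all genes, and 10 in SHAM hearts, beside 5.58%. Their median amplitude was 0.24 in TAC and 0.32 in SHAM hearts, against 0.05 in both over all genes. The list was chosen with earlier results of these data known and holds a clock gene, so this is no test of the receptor's targets. Zbtb16, a zinc finger repressor, had an amplitude of 0.33 in TAC (adjusted p = 0.0522) and 0.77 in SHAM hearts (adjusted p = 7.4e-07, limma). Per1, which is also a clock gene, had 0.39 in TAC and 0.52 in SHAM hearts, and Tsc22d3, the leucine zipper GILZ, had 0.33 in TAC and 0.39 in SHAM hearts, both passing in both surgeries. Klf9, described above with the thyroid hormone targets, was also among the 10 that passed in SHAM hearts. The difference of rhythm did not pass for Zbtb16 (adjusted p = 0.424), Per1 (adjusted p = 0.922) or Tsc22d3 (adjusted p = 0.916, limma).

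Of 8 measured receptor chaperones and steroid enzymes, 3 passed in TAC hearts, beside 4.35% of all genes, and 4 in SHAM hearts, beside 5.58%. The HSP90 gene Hsp90aa1, which holds the unliganded receptor ready for hormone, had an amplitude of 0.36 and peaked at ZT19.2 in TAC, and had 0.42 and peaked at ZT20.5 in SHAM hearts. Hsd11b1, the enzyme that regenerates active glucocorticoid inside cells, had 0.23 (adjusted p = 0.00078) in TAC and 0.15 (adjusted p = 0.0377, limma) in SHAM hearts. The chaperone Hspa8 passed in both surgeries, and Fkbp5, a receptor co-chaperone and target, in SHAM hearts with an amplitude of 0.46 against 0.34 in TAC hearts. The differences of rhythm did not pass for any of these (adjusted p of 0.892 for Hsp90aa1, 0.896 for Hsd11b1, 0.980 for Hspa8 and 0.872 for Fkbp5, limma).

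Rxrg and Rxra encode retinoid X receptors gamma and alpha, the shared partners of PPARs and thyroid receptors. Rxrg (chr1:167598362-167639623) was the receptor that changed over the day in TAC hearts without following a cosine. In TAC hearts it was 0.09, 0.00 and 0.07 at ZT03, 0.15, -0.02 and -0.01 at ZT07, -0.02, -0.23 and -0.03 at ZT11, 0.03, -0.03 and 0.10 at ZT15, 0.11, 0.19 and 0.30 at ZT19, and -0.10, 0.00 and -0.13 at ZT23. In SHAM hearts all values lay between -0.16 and 0.09, with means from -0.10 at ZT11 to 0.05 at ZT23. The 3 TAC values at ZT19 were above all TAC values at ZT03, ZT11, ZT15 and ZT23, and the ZT07 values overlapped with them in 1 mouse.

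The any-shape test gave an adjusted p of 0.0262 for Rxrg in TAC hearts and 0.730 in SHAM hearts (limma). The difference of courses between the surgeries did not pass after adjustment (p = 0.0357, adjusted p = 0.847, limma, n = 18 each), beside 0.0161% of all genes that did and 5.57% with an unadjusted p under 0.05. Of the 10 receptors, 0 passed that difference and 2 had an unadjusted p under 0.05. The 24 h amplitude was 0.05 ± 0.03 in TAC and 0.06 ± 0.03 in SHAM hearts (SE, n = 18 each), and neither passed. The TAC call held in 40 of 50 alternatives. The adjusted p was 0.107 without TAC ZT19 replicate 3, 0.0671 without TAC ZT19 replicate 2 and 0.0547 without TAC ZT23 replicate 1. It was 0.219 with the 18 TAC arrays alone and 0.0873 after quantile normalization, and the call was also lost without any of the 3 replicate numbers. Without the 2 and the 4 hearts of raised thymocyte or airway markers it was 0.0559 and 0.0590 (limma). The closest genes were Atp6v0a2, a proton pump subunit, Pkia, the protein kinase A inhibitor, and Pcp4l1, with a Pearson r of 0.72, 0.71 and 0.69 over the 36 hearts, which dropped to 0.67, 0.57 and 0.54 without the 2 farthest hearts.

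Rxra (chr2:27676445-27763319) had the smallest pooled SD within groups in TAC hearts, 0.05, while in SHAM hearts Thra (0.05) and Rxrg (0.06) were below its 0.07. Its values lay between -0.09 and 0.09 in TAC and between -0.15 and 0.12 in SHAM hearts. The amplitude was 0.02 ± 0.02 in TAC (adjusted p = 0.887) and 0.04 ± 0.02 in SHAM hearts (SE, n = 18 each, adjusted p = 0.468, limma). Its 2 probe sets hardly ran together, with a Pearson r of 0.10 over the 36 hearts. Averaging such probe sets narrows the range and the SD. At TAC ZT15 the mean was -0.05, 0.09 and 0.05, where 1454773_at alone was -0.17, 0.14 and 0.21. The SD of Rxra is therefore not comparable with that of receptors with 1 probe set. The closest genes were Prl2a1, Kcnc4 and Adcyap1r1, with a Pearson r of 0.71, 0.69 and 0.68.

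Of 13 measured retinoid pathway genes, 1 passed in TAC hearts, beside 4.35% of all genes, and 2 in SHAM hearts, beside 5.58%. Rarb, the retinoic acid receptor beta, had an amplitude of 0.19 in TAC (adjusted p = 0.0866) and 0.27 in SHAM hearts (adjusted p = 0.00603, limma). Aldh1a1, a retinaldehyde dehydrogenase, had 0.48 in both surgeries, passing in SHAM hearts (adjusted p = 0.0415) and not in TAC hearts (adjusted p = 0.0505, limma). Rarres2, which encodes chemerin, passed in TAC hearts with an amplitude of 0.11 against 0.04 in SHAM hearts. The differences of rhythm did not pass for Rarb (adjusted p = 0.859), Aldh1a1 (adjusted p = 0.979) or Rarres2 (adjusted p = 0.812, limma).

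Ppara, Ppard and Esrra, the receptors of fatty acid oxidation and mitochondrial supply, had no course that passed. Ppara (chr15:85734910-85806851) encodes PPAR alpha, the fatty acid-sensing receptor of fasting. In TAC hearts it was 0.22, 0.04 and -0.40 at ZT03, -0.10, 0.11 and 0.02 at ZT07, 0.54, -0.21 and 0.13 at ZT11, 0.07, -0.22 and -0.99 at ZT15, 0.02, 0.11 and -1.63 at ZT19, and -0.11, -0.02 and -0.04 at ZT23. In SHAM hearts it was -0.35, 0.05 and -0.20 at ZT03, -0.22, -0.30 and -0.18 at ZT07, -0.13, 0.37 and 0.15 at ZT11, -0.05, 0.52 and 0.35 at ZT15, -0.18, 0.17 and 0.09 at ZT19, and -0.43, 0.22 and 0.21 at ZT23. A pair of TAC hearts, ZT15 replicate 3 and ZT19 replicate 3, lay far below all the others. Those hearts also had low means of 19 matrix genes, -0.68 and -0.52, and their means of 8 white adipocyte markers were 0.97 and -0.31. TAC ZT03 replicate 1 had a matrix mean of -0.56 and a Ppara value of 0.22. The part of these in the Ppara values was not tested.

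**Figure D2:**
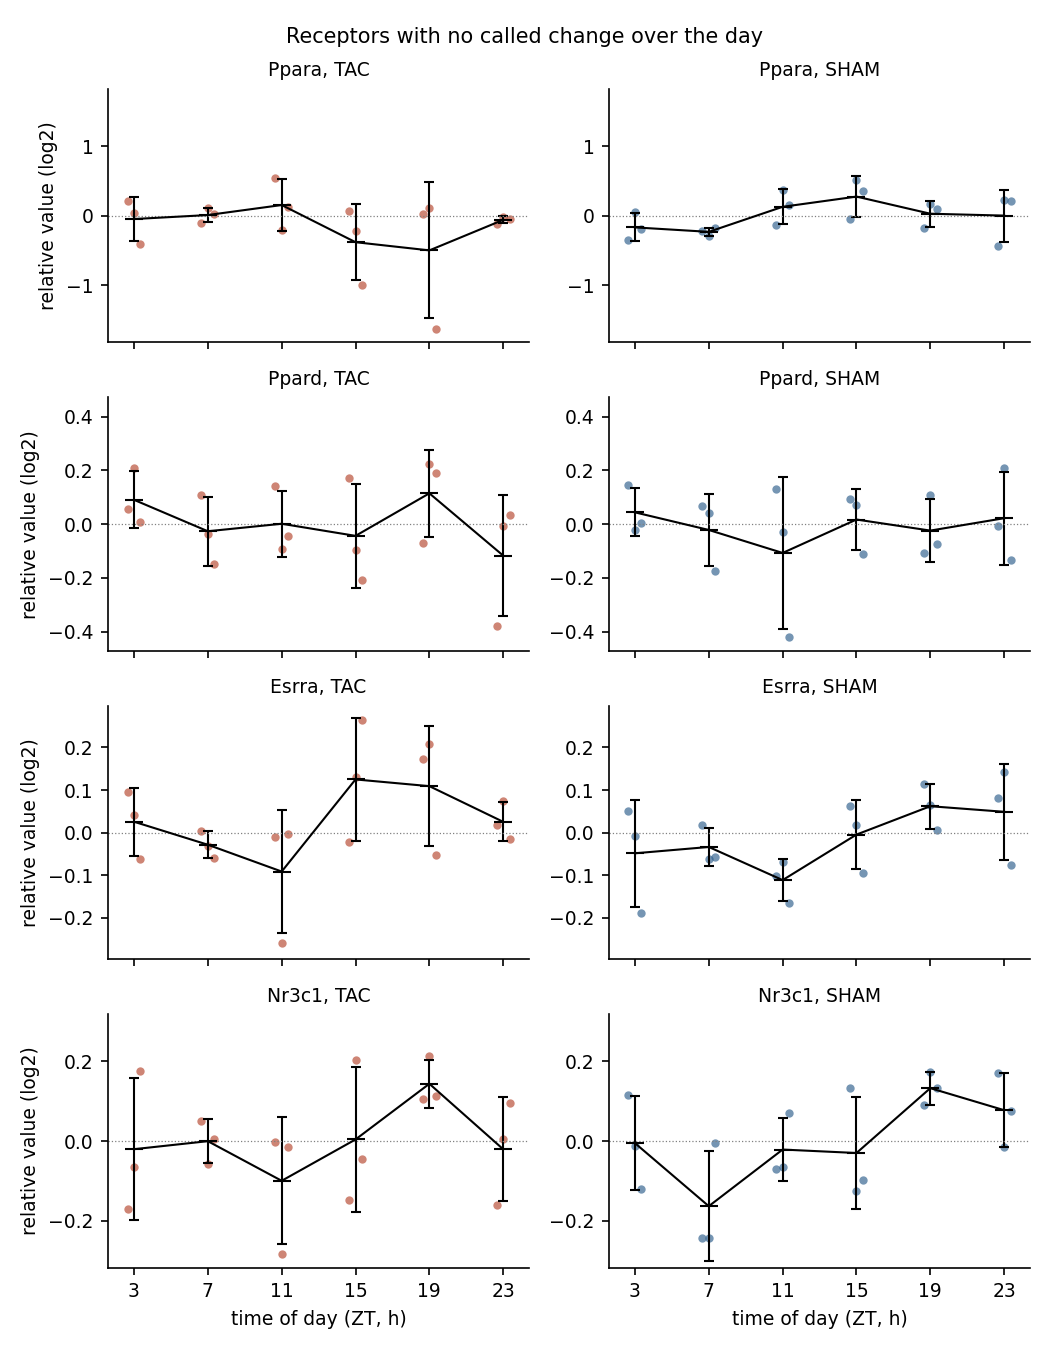
Relative value (log2, vertical axis) against time of day (ZT in h, horizontal axis) for Ppara, Ppard, Esrra and Nr3c1, 4 of the 6 receptors with no change over the day that passed, with TAC hearts on the left and SHAM hearts on the right. Points are single mice and black marks the mean ± SD of 3 mice. In TAC hearts Ppara reached -0.99 at ZT15 and -1.63 at ZT19 in 1 mouse each.

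The Ppara amplitude was 0.26 ± 0.12 in TAC (adjusted p = 0.338) and 0.22 ± 0.12 in SHAM hearts (SE, n = 18 each, adjusted p = 0.474, limma). The difference of rhythm had p = 0.0355 before and 0.789 after adjustment (limma, n = 18 each). Without TAC ZT19 replicate 3 the TAC amplitude was 0.10, and the unadjusted p of the difference was 0.0694, so both values moved with that heart. The closest genes were Taok1, Tns1 and Rasal2, with a Pearson r of 0.88, 0.83 and 0.82, which dropped to 0.67, 0.49 and 0.63 without the 2 farthest hearts.

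Ppard (chr17:28232754-28301469), the ubiquitous PPAR delta, had values from -0.38 in TAC ZT23 replicate 1 to 0.22 in TAC ZT19 replicate 2, and from -0.42 in SHAM ZT11 replicate 3 to 0.21 in SHAM ZT23 replicate 2. The lowest TAC and the lowest SHAM heart are the ones with the highest airway and the highest thymocyte markers, whose part in these values was not tested. Amplitudes were 0.01 ± 0.05 in TAC and 0.05 ± 0.05 in SHAM hearts (SE, n = 18 each), with adjusted p of 0.996 and 0.801 (limma). Asb15, Sec14l4 and Tigd5 ran most like it, with a Pearson r of 0.74, 0.70 and 0.70. These dropped to 0.57, 0.59 and 0.60 without the 2 farthest hearts, which are the lowest TAC and the lowest SHAM heart.

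Esrra (chr19:6910977-6922048) encodes the orphan receptor ERR alpha, which works with the PGC-1 coactivators on mitochondrial genes. In TAC hearts the means were 0.03 at ZT03, -0.03 at ZT07, -0.09 at ZT11, 0.12 at ZT15, 0.11 at ZT19 and 0.03 at ZT23, with SDs of 0.03 to 0.14 (n = 3 each). In SHAM hearts they were -0.05, -0.03, -0.11, 0.00, 0.06 and 0.05, with SDs of 0.04 to 0.13 (n = 3 each). ZT11 was the lowest mean in both. The amplitude was 0.08 ± 0.03 in TAC (adjusted p = 0.246) and 0.07 ± 0.03 in SHAM hearts (SE, n = 18 each, adjusted p = 0.324, limma), with fitted peaks at ZT19.2 and ZT20.8. Its closest genes were Speg, a striated muscle kinase, Stub1, a ubiquitin ligase, and Fmc1, with a Pearson r of 0.81, 0.80 and 0.79.

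**Figure D3:**
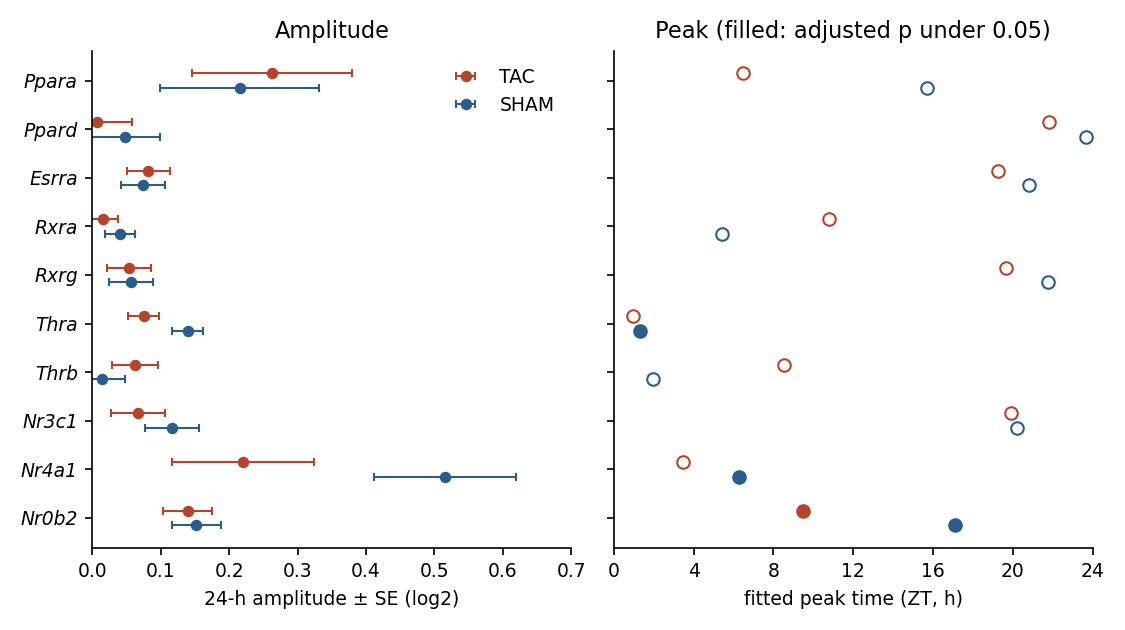
Left, 24 h amplitude ± SE (log2) of the 10 receptors in TAC (red) and SHAM hearts (blue), n = 18 each. Right, fitted peak time (ZT, h) with filled points where the rhythm passed at an adjusted p under 0.05. Nr4a1 had the largest amplitude, 0.52 in SHAM hearts, and Nr0b2 was filled in both surgeries with peaks at ZT9.48 and ZT17.1. The fitted peaks of amplitudes close to 0 carry no information.

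Few of the PPAR target genes and none of the ERR target genes passed the 24 h rhythm test. Of 24 measured PPAR target genes, 1 passed in TAC hearts, beside 4.35% of all genes, and 3 in SHAM hearts, beside 5.58%. Plin5, a lipid droplet coat protein, passed in TAC hearts with an amplitude of 0.28 (adjusted p = 0.0141), against 0.05 in SHAM hearts (adjusted p = 0.848, limma). Ucp3, Cpt1a and Pdk4 passed in SHAM hearts. The carnitine palmitoyltransferase Cpt1a had 0.05 in TAC and 0.13 in SHAM hearts, and Pdk4, the kinase that holds back glucose oxidation, 0.33 in TAC and 0.64 in SHAM hearts. The differences of rhythm did not pass for Plin5 (adjusted p = 0.783), Cpt1a or Pdk4 (adjusted p = 0.789 each, limma). Pdk4 in SHAM hearts lay close to the threshold, with an adjusted p of 0.0457 that passed in 23 of 51 alternatives and was 0.169 without SHAM ZT07 replicate 2 (limma). Of 22 measured ERR target genes of energy supply, 0 passed in either surgery with limma. An unadjusted p under 0.05 was found for 3 in TAC and 0 in SHAM hearts, beside 19.8% and 18.8% of all genes. In the any-shape test 2 PPAR target genes passed in TAC hearts, beside 5.26% of all genes, and 7 in SHAM hearts, beside 3.37% (limma). For ERR target genes the counts were 1 in TAC and 0 in SHAM hearts. At an unadjusted p under 0.05 there were 12 PPAR and 8 ERR target genes in TAC hearts, beside 20.3% of all genes. In SHAM hearts there were 10 and 0, beside 13.2%.

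A few of the remaining nuclear receptors and of their coregulators passed the rhythm test. Of 32 other nuclear receptors, 2 passed in TAC hearts, beside 4.35% of all genes, and 4 in SHAM hearts, beside 5.58%. The REV-ERB genes Nr1d1 and Nr1d2 passed in both surgeries, and Rarb and the testicular receptor Nr2c1 in SHAM hearts. Nr1d2 had an amplitude of 0.61 and peaked at ZT9.07 in TAC, and had 0.75 and peaked at ZT10.8 in SHAM hearts. Of 19 coregulators, 2 passed in TAC hearts, the PGC-1-related coactivator Pprc1 with an amplitude of 0.13 and Ncoa4 with 0.15, and 1 in SHAM hearts, the steroid receptor coactivator Ncoa1 with 0.13. The differences of rhythm did not pass for Pprc1 (adjusted p = 0.893), Ncoa4 (adjusted p = 0.861) or Ncoa1 (adjusted p = 0.789, limma). Nor did they for Nr1d1 (adjusted p = 0.789), Nr1d2 (adjusted p = 0.567) or Nr2c1 (adjusted p = 0.825, limma).

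The spread between mice of a group was compared as the SD of each group of 3, with 6 TAC against 6 SHAM groups. Nr4a1 had a pooled SD of 0.19 in TAC and 0.38 in SHAM hearts. The SHAM value leaned on ZT07, where the SD was 0.78, against 0.14 to 0.33 at the other SHAM times. For Nr4a1 the mean difference in log2 group SD, TAC minus SHAM, was -1.26 (95% interval -2.57 to 0.06), which did not pass (adjusted p = 0.608, limma). That difference averages the logarithms of the 6 group SDs and is not the ratio of the pooled SDs. Ppara had a pooled SD of 0.50 in TAC and 0.25 in SHAM hearts, with a mean difference in log2 group SD of 0.40 (95% interval -0.89 to 1.69) and an adjusted p of 0.886 (limma). Its TAC group SDs were highest at ZT19 (0.98) and ZT15 (0.55), with 1 low mouse at each. The pooled SD was higher in TAC hearts for 6 of 10 receptors, against 71.9% of all genes. With limma 0 of 10 passed, beside 0.0161% of all genes, and 0 of 10 had an unadjusted p under 0.05, beside 8.31%.

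**Figure D4:**
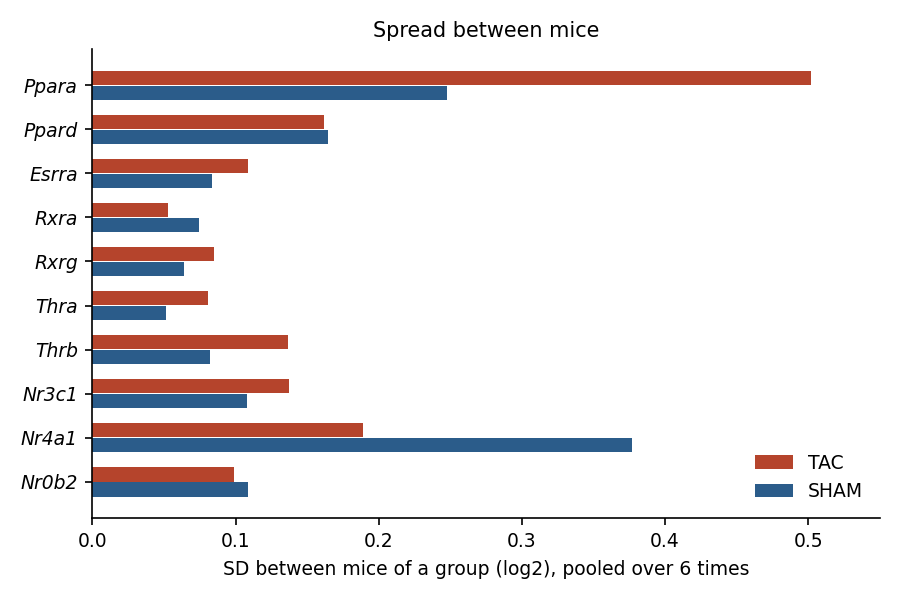
SD between mice of a group (log2, horizontal axis), pooled over the 6 times, for the 10 receptors in TAC (red) and SHAM hearts (blue). Ppara was the most variable in TAC hearts, at 0.50, and Nr4a1 in SHAM hearts, at 0.38. The largest group SDs behind these were 0.98 for Ppara at TAC ZT19 and 0.78 for Nr4a1 at SHAM ZT07. Rxra, Thra and Nr3c1 are means of 2 or 3 probe sets.

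TAC hearts differed from each other in Myh7, the beta myosin heavy chain gene that rises with pressure load, whose values ran from -1.95 to 1.62 in TAC and from -0.37 to 0.32 in SHAM hearts. The slope of each receptor on Myh7 was fitted among the 18 TAC hearts with the means of the 6 times removed. Thrb had a slope of -0.10 (95% interval -0.19 to -0.01), with an unadjusted p of 0.0327 (n = 18) that did not pass over all genes (adjusted p = 0.343, limma). Thra had a slope of -0.06 (95% interval -0.12 to 0.00, adjusted p = 0.437), Nr4a1 -0.11 (adjusted p = 0.517) and Esrra -0.06 (adjusted p = 0.593, limma). Ppara and Nr3c1 had positive slopes, of 0.07 (95% interval -0.28 to 0.42) and 0.02 (95% interval -0.09 to 0.12).

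None of the 10 passed with limma, beside 1.42% of all genes, and 1 had an unadjusted p under 0.05, beside 12.3%. Slopes were negative for 8 of 10, against 56.5% of all genes, with a median of -0.05, against -0.01. The Thrb slope moved with single hearts, and it passed after adjustment in 1 of 31 alternatives. It was -0.13 without TAC ZT11 replicate 2 (adjusted p = 0.0425), -0.06 without TAC ZT03 replicate 3 (adjusted p = 0.662), whose airway markers were raised, and -0.07 without TAC ZT03 replicate 1 (adjusted p = 0.658, limma). Without the 4 hearts of raised thymocyte or airway markers it was -0.06 (adjusted p = 0.670), and without replicate number 3 it was 0.01 (adjusted p = 0.998, limma). Among the 18 SHAM hearts 0 of 10 passed with limma, beside 0% of all genes, and 0 of 10 had an unadjusted p under 0.05, beside 3.2%.

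**Figure D5:**
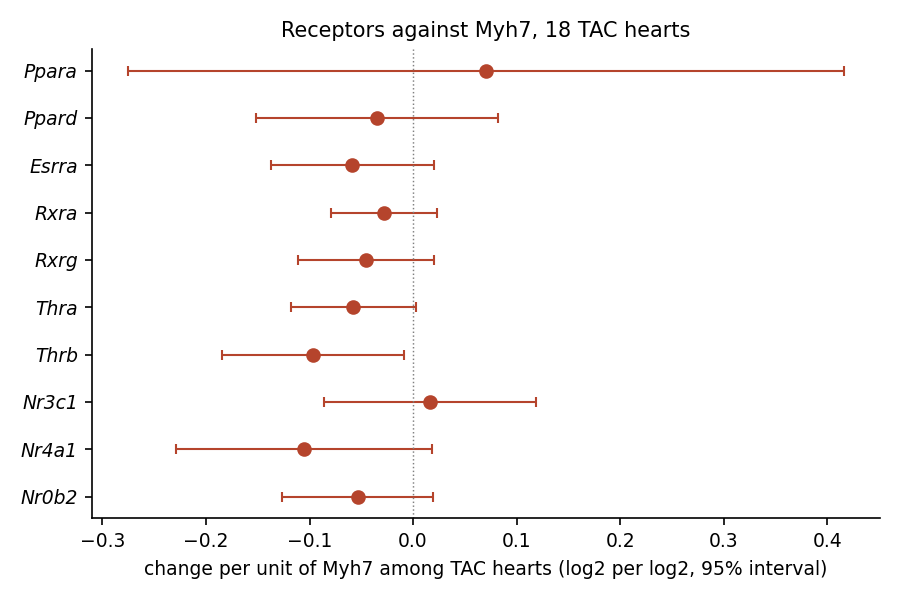
Slope of each receptor on Myh7 among the 18 TAC hearts (log2 per log2 unit, horizontal axis), with 95% intervals as bars and the 6 time means removed. The interval of Thrb, -0.19 to -0.01, lies below 0 with all hearts, and those of the other 9 receptors include 0. Without TAC ZT03 replicate 3 the Thrb slope was -0.06.

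Several genes that these receptors act on did vary with Myh7 among TAC hearts, and they were chosen for naming after their values were seen. Of 24 PPAR target genes 4 passed, beside 1.42% of all genes, all with negative slopes. Acaa2, the last enzyme of the fatty acid oxidation spiral, had a slope of -0.31 ± 0.04 (SE, adjusted p = 0.00230, limma), and the fatty acid transporter Cd36 (-0.17), the dehydrogenase Acadm (-0.16) and the reductase Decr1 (-0.18) followed. Of 22 ERR target genes 3 passed, also negative, the citric acid cycle enzymes Sdha (-0.16) and Idh3a (-0.13) and the complex III subunit Uqcrc2 (-0.15). The coactivator gene Ppargc1b had a slope of -0.16 ± 0.03 (SE, adjusted p = 0.0197, limma), 1 of 19 coregulators. Of 17 thyroid hormone targets the potassium channel gene Kcnd2 passed with -0.15 ± 0.03 (SE, adjusted p = 0.0110, limma), and among the 5 genes of thyroid hormone supply Dio2, the deiodinase that makes active hormone, passed with a positive slope of 0.27 ± 0.06 (SE, adjusted p = 0.0381, limma). The median slope was -0.11 over the PPAR targets and -0.08 over the ERR targets, against -0.01 over all genes. In the other lists, 0 of 18 glucocorticoid targets, 0 of 13 retinoid genes, 0 of 20 immediate early genes, 0 of 9 FXR and SHP genes, 0 of 32 other nuclear receptors and 0 of 8 chaperones and steroid enzymes passed with limma. At an unadjusted p under 0.05 these lists had 2, 1, 2, 0, 2 and 2 genes in the same order, beside 12.3% of all genes. In the lists with calls there were 13 of 24 PPAR targets, 15 of 22 ERR targets and 5 of 19 coregulators. Of the thyroid hormone lists, 6 of 17 targets and 1 of 5 supply genes did so.

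Apart from that of Acaa2, these calls depended on a few hearts. Over all genes 176 passed, and 0 did without replicate number 1, 36 without number 2 and 8 without number 3, so each gene named lost its call without number 1. The count was 23 after quantile normalization, where Acaa2 and Dio2 still passed, 52 with array weights, where Acaa2 did, and 95 without the 4 hearts of raised thymocyte or airway markers, where Acaa2 and Uqcrc2 did. Acaa2 passed in 29 of 31 alternatives, Kcnd2 and Ppargc1b in 22, Sdha in 20, Acadm in 17, Decr1 and Dio2 in 14, Cd36 in 13, Uqcrc2 in 12 and Idh3a in 10. Without TAC ZT15 replicate 3 the adjusted p was 0.127 for Cd36, 0.119 for Acadm, 0.145 for Idh3a and 0.153 for Uqcrc2. Without TAC ZT03 replicate 3 it was 0.0917 for Sdha and 0.144 for Dio2, without TAC ZT03 replicate 1 it was 0.107 for Ppargc1b and 0.0750 for Kcnd2, and without TAC ZT11 replicate 1 it was 0.117 for Decr1 (limma). Matrix gene means ran from -0.68 to 0.86 in TAC and from -0.17 to 0.22 in SHAM hearts, and activated fibroblast marker means from -0.61 to 1.06 in TAC and from -0.11 to 0.19 in SHAM hearts. Their part in these slopes was not tested.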

How the data were processed

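Messenger RNA of 36 left ventricles was measured on single-channel Affymetrix arrays. Per the labels' protocols, Trizol was used for extraction and 6 ug of total RNA went into labelling with biotin. The authors deposited log-scale values, taken here as log2. Their log base and how they were summarised and normalized is not given in the sources used here. The values were centred within each surgery, as tested on the table. No pair of arrays was identical. Precision is limited by the number of arrays.

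Probe sets were named by the platform annotation. Of 22690 probe sets, 20380 had 1 symbol, 691 had several and 1555 were not listed, and 64 were controls. With limma 3.58.1 in R 4.3.3, each surgery's mean and its 24 h cosine and sine terms were fitted to all 36 arrays, with 1 spread per gene for both surgeries. Moderated F-tests, with no intensity trend, asked for a rhythm in each surgery and for a difference. Models of 12 group means tested any shape and the difference of courses. The log2 SDs of the 12 groups were compared by limma. Myh7 was a covariate beside the 6 time means. Benjamini-Hochberg adjustment ran over 12393 genes (12392 for Myh7), at a threshold of 0.05. Scripts were tested on simulated data.

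Replicates are mice of 1 surgery and time. All members were named, with up to 4 passing genes per list by the smallest joint p and the 3 genes of highest Pearson r per member. Members and lists were chosen with earlier results of these data known. Alternatives covered normalization, array centring and weights, probe sets, covariates and left-out arrays. For the rhythm and shape tests within a surgery, leaving out an array of the other surgery kept the fitted course and moved only the shared spread. Figures were drawn with matplotlib 3.10.9.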

Additional observations from a re-analysis of the deposited data

How the results depend on the processing

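Amplitudes and F-tests have no sign, so a change of sign was possible only for the spread and the Myh7 slopes. No member had passed in those tests, and none changed sign past the threshold. Of 3741 values of the members' results under alternatives, 3661 kept their side of the threshold, 65 were no longer past it and 15 came past it. Only 8 of the 90 member results had passed, and all 65 losses fell on those 8. Among the losses were 25 of 51 alternatives for the Nr0b2 rhythm in TAC and 16 of 50 for Nr0b2 in any shape in SHAM. In TAC hearts the count of rhythmic members, 1 as reported, was 0 after quantile normalization, with atrial and white adipocyte covariates, with the 18 TAC arrays alone, and without the 2 arrays of a thymocyte or airway mean above 1, and it was 2 with the probe set of largest SD and 3 with array weights. The count for any shape in TAC, 1 as reported, was 0 after quantile normalization, with the 18 TAC arrays alone, and without the 2 or the 4 arrays of raised markers, and 3 with array weights. The difference of rhythm, 0 as reported, was 1 after quantile normalization and 1 with array weights, and the difference of courses, 0 as reported, was 1 with array weights. The array weights did not reach their convergence tolerance, and called 2298 genes rhythmic in TAC against 539. In these cases the cause was not tested.

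Leaving out single arrays or replicate numbers gave 0 to 2 rhythmic members in TAC, 1 to 3 in SHAM, 0 to 2 for any shape in TAC, 0 to 3 for any shape in SHAM, 0 for both differences, 0 to 1 for Myh7 in TAC and 0 for Myh7 in SHAM. With a replicate number left out, 2 mice remained per group. With the replicate number as a block, the counts were 1 rhythmic member in TAC, 3 in SHAM and 0 different, 1 and 3 for any shape and 0 for the course, and the adjusted p of the Nr0b2 difference was 0.141, so the block changed no call of a member. With group means removed, same-numbered TAC and SHAM arrays of a time correlated between -0.21 and 0.36, over 0.1 in 4 of 18 pairs. Between arrays of different groups the median correlation was 0.04 for the same number and -0.01 for different numbers. With 3 mice per group, these values cannot decide whether arrays of 1 number share more than the number. Leaving out the 4 arrays with raised markers, the mean of the matrix genes in place of Myh7 and single probe sets were chosen after seeing the data. Levels, and therefore detection, are limited by the centring.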
